A study of Mus musculus with 6 samples.

Results

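The epidermal differentiation complex (EDC) is a cluster of genes on mouse chromosome 3 that build the outer layers of the epidermis. Its members were taken here as every gene of the count table that is classed as protein-coding, lies on chromosome 3 and starts inside a fixed window of 3.24 Mb (first start 90476201, of *Ilf2*, and last start 93555080, of *S100a10*, on GRCm38 as the table gives positions), which gave 68 of 22295 genes. By symbol they fell into 14 S100 genes, 14 *Sprr* genes, 20 *Lce* genes, 6 genes of the S100 fused type (*Crnn*, *Flg2*, *Hrnr*, *Rptn*, *Tchh* and *Tchhl1*), 7 other cornified envelope and proline-rich genes (*Lor*, *Ivl*, *Kprp*, *Prr9*, *Smcp*, *Crct1* and *2310050C09Rik*), both *Pglyrp* genes of the window, and 5 other genes that lie in the same interval (*Ilf2*, *Snapin*, *Chtop*, *9130204L05Rik* and *Gm9774*). The group of 7 is called the other envelope genes below, though not every gene in it is known to encode an envelope protein. *Flg*, which encodes filaggrin, is classed as a processed transcript in the table and so is no member.

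RNA was sequenced from GFP-positive keratinocytes of 3 K19 *Itga3* WT and 3 K19 *Itga3* KO mice, 1 library per mouse, to ask how loss of integrin α3β1 in hair bulge (HB) cells alters their expression early in skin carcinogenesis. WT mice carried a tamoxifen-inducible Cre under the K19 promoter (K19-CreER, written 19(Cre-ERT) in the labels) with the mTmG reporter on FVB, and KO mice carried the same transgenes with floxed *Itga3* alleles. Both groups received tamoxifen at 6 weeks of age (10 mg/ml over 4 days per the labels; the methods of the study give a slightly earlier start and a lower injected concentration, together with topical tamoxifen at a higher one), then 1 dose of 30 µg DMBA, the carcinogen, at 7 weeks and 2 weeks of repeated 12.34 µg TPA, a phorbol ester that promotes tumors. Cre is driven by the K19 promoter, so GFP marks HB cells and their progeny in other parts of the hair follicle (HF) and, at this stage, also some cells nearer the surface, and every control carries Cre, reporter, tamoxifen, DMBA and TPA as well. The columns carry the genotype and a mouse number, but nothing that ties a column to a numbered sample. The libraries are called WT a, b, c and KO a, b, c in table order.

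The libraries held 20578309 to 23670507 counts, and levels are CPM (counts scaled to library size with TMM factors). *Itga3* was at 252 to 371 CPM in WT and 124 to 134 CPM in KO libraries. Keratinocyte and bulge markers were high in each library (*Krt5*, *Krt14* and 3 other basal markers summed to 26463 to 40091 CPM, *Krt15*, *Cd34*, *Lgr5* and 4 other bulge markers to 11530 to 18366 CPM), whereas lists of neutrophil, macrophage, endothelial and melanocyte genes each summed to at most 17.0 CPM. A fibroblast list summed to 116 to 178 CPM in WT and 48.1 to 80.3 CPM in KO libraries, nearly all of it from *Col1a1* and *Col1a2*, with *Lum* and *Col3a1* at 0 to 1.40 CPM, and a T cell list to 58.9 to 86.2 and 22.1 to 47.5 CPM, nearly all from *Thy1*, with *Cd3e*, *Cd3g* and *Cd2* at 0 to 0.459 CPM. Their part in the results was not tested. Since whole sorted populations were sequenced, fewer cells of a type and less RNA per cell cannot be told apart in any value below.

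As keratinocytes move outward they stop dividing, replace K5 and K14 by K1 and K10, and assemble a cornified envelope beneath the membrane. Loricrin, involucrin, the small proline-rich (SPRR) and the late cornified envelope (LCE) proteins are its building blocks and are cross-linked by transglutaminases, whereas filaggrin-like fused-type proteins bundle keratin filaments and feed the barrier. S100 proteins are small calcium-binding proteins, of which S100A8 and S100A9 form calprotectin in neutrophils and in irritated or wounded epidermis, and SPRR genes are also known to be induced by injury and phorbol esters. Phorbol esters act in part through AP-1, a dimer of Jun and Fos proteins that binds the TPA response element, TGACTCA or TGAGTCA.

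Because all 6 mice had received TPA, the promoters of the members were searched for TGANTCA, a looser form with any middle base. It reads alike on both strands, so a match counts for both. A single RefSeq promoter (GRCm38.p6, 250 bases before to 50 after the start) was at hand for 54 of the 68 members. Members without exactly 1 promoter were left out. Of the 54, 17 (31.5%) held the letters, against 7.81% of all 32851 promoters of the RefSeq table, to which that rule was not applied. Of the *Sprr* promoters 9 of 13 held them, 4 of 6 of the fused-type genes, 3 of 5 of the other envelope genes, 1 of 9 of the S100 genes and 0 of 19 of the *Lce* genes. In the 4 fused-type matches and that of *Sprr1b* the middle base is A or T, so these are not the TPA response element itself. The matches are shown for the genes that the results turn on, with 15 bases on each side in the direction of transcription and TGANTCA in capitals. In 7 *Sprr2* promoters the first base of a match lay 193 to 198 bases before the start. These 7 belong to neighbouring genes with like sequences, so they are not independent observations in the shares above. The first base lay at −111 in *Sprr1b*, at −146 and −116 in *Sprr1a*, at −48 in *Lor*, at −116 in *Ivl*, and at −136 and −38 in *S100a11*. The RefSeq start was the gene's end in the count table for 42 of the 54 members. It differed by 14 bases in *Sprr1a*, by 20 in *Ivl* and by 8 in *S100a11*, but by 3265 in *Sprr2a3*, 2937 in *Flg2* and 16895 in *Lce1a2*, so that for these last genes the window may not be the promoter of the counted transcripts.
Sprr2b, chr3:92316495-92316531, plus strand: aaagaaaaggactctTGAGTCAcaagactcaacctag
Sprr2d, chr3:92338932-92338968, plus strand: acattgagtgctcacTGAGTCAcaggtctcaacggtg
Sprr2e, chr3:92351935-92351971, plus strand: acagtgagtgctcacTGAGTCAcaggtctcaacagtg
Sprr2f, chr3:92364975-92365011, plus strand: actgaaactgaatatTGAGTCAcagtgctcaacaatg
Sprr2h, chr3:92385472-92385508, plus strand: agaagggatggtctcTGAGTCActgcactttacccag
Sprr2i, chr3:92407783-92407819, plus strand: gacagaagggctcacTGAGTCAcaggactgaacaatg
Sprr1b, chr3:92438869-92438905, minus strand: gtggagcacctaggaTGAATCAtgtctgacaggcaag
Sprr1a, chr3:92486006-92486042, minus strand: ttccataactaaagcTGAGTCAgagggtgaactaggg
Sprr1a, chr3:92485976-92486012, minus strand: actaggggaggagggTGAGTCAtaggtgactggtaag
Ivl, chr3:92573830-92573866, minus strand: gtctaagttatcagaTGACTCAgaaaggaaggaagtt
Lor, chr3:92083169-92083205, minus strand: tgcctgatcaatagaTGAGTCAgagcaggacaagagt
S100a11, chr3:93520345-93520381, plus strand: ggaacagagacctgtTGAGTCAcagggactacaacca
S100a11, chr3:93520443-93520479, plus strand: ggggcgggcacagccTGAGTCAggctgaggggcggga

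For contrast, the 60 bases from −80 to −21 of 4 *Lce1* promoters are given in lower case, since these genes were high together in 1 library, as described further on, and hold no match.
Lce1a1, chr3:92648328-92648387, minus strand: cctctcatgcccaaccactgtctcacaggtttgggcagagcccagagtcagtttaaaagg
Lce1c, chr3:92679167-92679226, plus strand: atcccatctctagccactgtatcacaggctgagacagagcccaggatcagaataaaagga
Lce1e, chr3:92709095-92709154, minus strand: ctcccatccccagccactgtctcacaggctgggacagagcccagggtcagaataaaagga
Lce1m, chr3:93019082-93019141, minus strand: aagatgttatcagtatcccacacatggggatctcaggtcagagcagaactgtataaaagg
A match is a run of letters, not a bound site, and the promoters were not measured here.

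The 68 members together took 0.325 to 0.357% of all counts, of which the S100 genes took 0.255 to 0.286%. Per kilobase of exon, the scale on which genes can be set against each other, the mean over the 6 libraries was highest for *S100a6* (799 CPM per kb), followed by *S100a11* (623), *S100a4* (374), *S100a14* (213), *S100a9* (193), *S100a10* (193) and *S100a16* (157). Over unique sequence alone *S100a11* would stand above *S100a6* (1022 against 799 CPM per unique kb), so the order of these 2 is not settled. *Sprr1a* (101) and *S100a8* (101) came next, followed by *S100a1* (95.1), *Sprr1b* (71.4) and *Sprr2d* (57.4). Envelope genes of terminally differentiated cells were far lower, with *Lor* at 12.0, *Crct1* at 8.01, *Lce1a2* at 5.18, *Ivl* at 4.51 and *Lce1m* at 4.26 CPM per kb. WT b carried much of the means of *Lor*, *Lce1a2* and *Lce1m*, which were 7.66, 2.09 and 1.22 CPM per kb without it. Every member had at least 1 count in some library, 62 had more than 3 counts in at least 1 library, and 49 had a mean of at least 10 counts. The 6 members that never passed 3 counts were *S100a2*, *Sprr3*, *Smcp*, *Lce3a*, *Lce3e* and *9130204L05Rik*, and *Crnn*, *Lce3b* and *Tchhl1* reached 8 to 11 counts at most.

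Between the genotypes, 1 of the 68 members rose and 0 fell at an adjusted p below 0.05 (edgeR), where 0.461% of the 21681 tested genes rose and 0.212% fell. At an unadjusted p below 0.05 the numbers were 9 higher (*S100a16*, *S100a8*, *S100a9*, *S100a11*, *Pglyrp4*, *Pglyrp3*, *Prr9*, *Sprr1b* and *Sprr1a*) and 2 lower (*S100a6* and *Kprp*), beside 5.58% and 5.97% of all genes. limma-voom called 1 member and DESeq2 2 members, all higher in KO, where 24 and 546 of all tested genes passed. All 3 KO libraries lay above all 3 WT libraries in 6 of the 68 members (*S100a16*, *S100a11*, *Sprr1a*, *Prr9*, *Ilf2* and *Chtop*; 8.03% of all genes) and below them in 1 (*S100a6*; 8.23%). The median log2 fold change was −0.12 over the members and 0.000088 over all tested genes. It differed between subfamilies, at 0.54 for the 14 *Sprr* genes, 0.80 for the 2 *Pglyrp* genes, 0.01 for the 14 S100 genes, 0.04 for the 6 fused-type genes, −0.04 for the 7 other envelope genes, −0.17 for the 5 other genes and −1.17 for the 20 *Lce* genes. The *Lce* value was 0.90 without WT b and −3.02 without KO c.

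**Figure D1:**
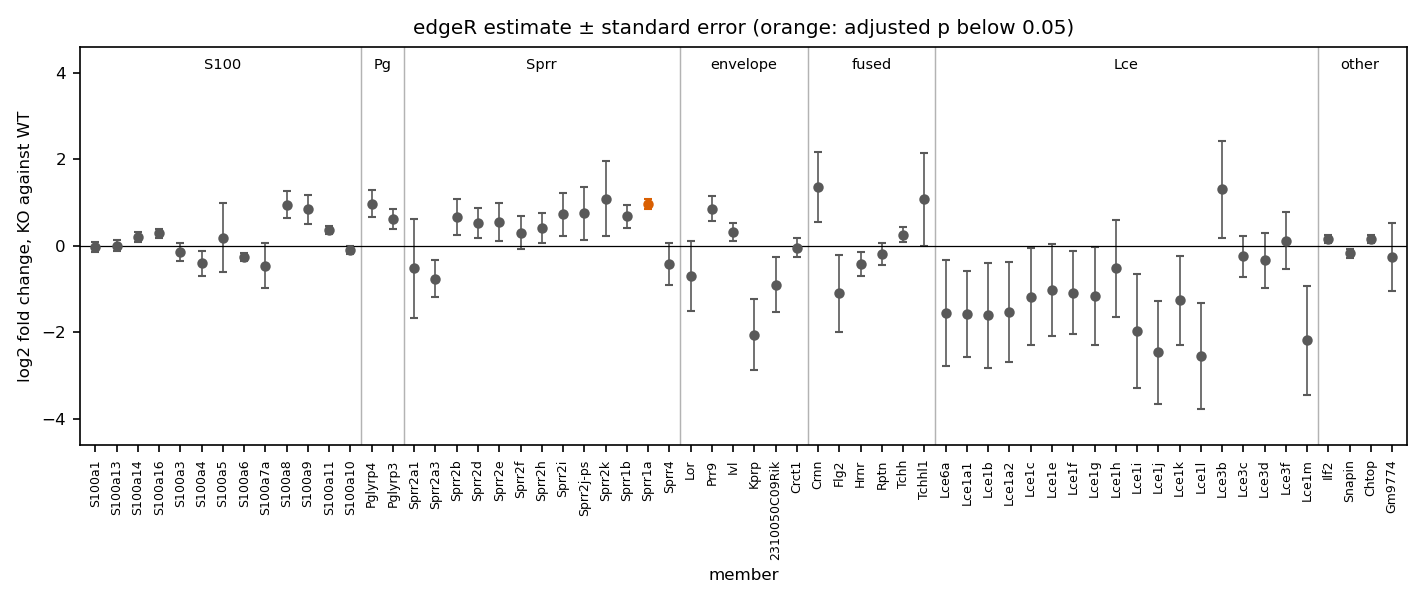
Log2 fold change of K19 Itga3 KO against WT libraries (vertical axis) for the 62 members with more than 3 counts in some library, grouped by subfamily, with points for the edgeR estimate and bars for its standard error. Sprr1a (orange, 0.97) is the member that passed the adjusted threshold, most Sprr points lie above 0, and the Lce1 points lie below 0 with standard errors of 0.96 to 1.32.

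*Sprr1a*, which encodes a small cross-bridging protein of the envelope, was the member that rose. Its levels in WT a, b and c were 53.1, 50.1 and 62.0 CPM, and those in KO a, b and c were 124, 97.9 and 102 CPM. Each KO library was thus above each WT library, with means of 55.1 ± 6.16 and 108 ± 13.9 CPM (SD, n = 3 each), a 1.96-fold difference. The log2 fold change was 0.97 (standard error 0.12, edgeR adjusted p = 0.00402), limma-voom gave an adjusted p of 0.0238 and DESeq2 2.67e-09, and an exact two-sided permutation test gave p = 0.1, the smallest that 3 against 3 allow. The call was lost without WT c (1.07, adjusted p = 0.119) and without KO a (0.86, adjusted p = 0.0704), fits in which 5 and 10 genes of all those tested passed. The summed level of a suprabasal keratinocyte list (*Krt1*, *Krt10*, *Krt77*, *Krtdap*, *Sbsn* and *Dmkn*) was also higher in KO (3839 to 3949 CPM) than in WT libraries (2921 to 3534 CPM), and its part in the *Sprr1a* difference was not tested. *Sbsn* carried 488 of the 637 CPM between the list's group means, and without *Sbsn* the groups overlapped (2427, 3035 and 2824 CPM in WT, 2920, 2866 and 2944 CPM in KO libraries). The study displays *Sprr1a* among its changed genes from these same libraries, so the direction given here is not independent evidence.

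*Sprr1b*, the nearest relative of *Sprr1a* in the cluster, stood at 36.3, 28.5 and 71.6 CPM in WT and 75.4, 82.1 and 61.6 CPM in KO libraries. WT a and b were lowest and WT c lay among the KO libraries, so the groups overlapped, and the log2 fold change of 0.68 (standard error 0.26) did not pass (edgeR adjusted p = 0.327). The ratio of *Sprr1a* to *Sprr1b* counts was 0.865 in WT c and 1.19 to 1.76 in the other libraries.

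The 10 *Sprr2* genes encode shorter proteins of the same kind, and 8 of the 9 besides *Sprr2a3* had a log2 fold change above 0, none of them past the threshold. *Sprr2d*, the most abundant per kilobase, stood at 25.2, 15.6 and 55.2 CPM in WT and 47.3, 56.1 and 35.0 CPM in KO libraries (0.53, standard error 0.35, edgeR adjusted p = 0.633). *Sprr2h* stood at 10.3, 7.05 and 23.9 CPM in WT and 22.1, 18.3 and 14.4 CPM in KO libraries. In both genes WT a and WT b were the lowest libraries and WT c the highest or second highest. Over *Sprr1* and *Sprr2* genes together, WT b was the lowest library in 9 of 12, WT a and WT b were the lowest pair in 8, every KO library lay above WT a in 10 and above WT b in 9, and WT c lay above every KO library in 7. Without WT c, 11 of the 12 had a log2 fold change above 0, and without WT b 9 of the 12. The shares of all tested genes with these orders were not taken. As neighbours with like sequences, measured in the same mice, the 12 genes are not independent observations.

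Summed over the subfamily, *Sprr* RNA stood at 138, 124 and 246 CPM in WT and 294, 283 and 234 CPM in KO libraries. The WT mean was 169 ± 66.7 and the KO mean 270 ± 32.2 CPM (SD, n = 3 each), a 1.60-fold ratio. The groups overlapped, since WT c stood above KO c. For the *Sprr1* genes alone the groups did not overlap (89.4, 78.6 and 134 against 199, 180 and 164 CPM). For the *Sprr2* genes alone they did overlap (48.4, 45.0 and 112 against 94.8, 103 and 69.6 CPM).

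*Sprr2a3* differed from its relatives in order. It stood at 3.44, 17.1 and 10.0 CPM in WT and 5.40, 7.69 and 5.03 CPM in KO libraries, with WT b highest, where WT b was lowest in *Sprr2b*, *Sprr2d*, *Sprr2e*, *Sprr2f*, *Sprr2h* and *Sprr2i*. Its log2 fold change of −0.75 (standard error 0.42, edgeR adjusted p = 0.547) became −1.16 (adjusted p = 0.0304) without WT a, a fit in which 521 genes of all those tested passed. In 47.2% of its possible 65-base reads the sequence is unique among transcripts, the rest being shared with *Sprr2a1*, which has 4.76% unique reads and 4 counts at most, so the counts of both are uncertain. Its RefSeq promoter window, which lies 3265 bases from the start in the count table, and that of *Sprr2a1* held no TGANTCA. *Sprr3* and *Sprr4*, the remaining members of the subfamily, had at most 1 and 9 counts.

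**Figure D2:**
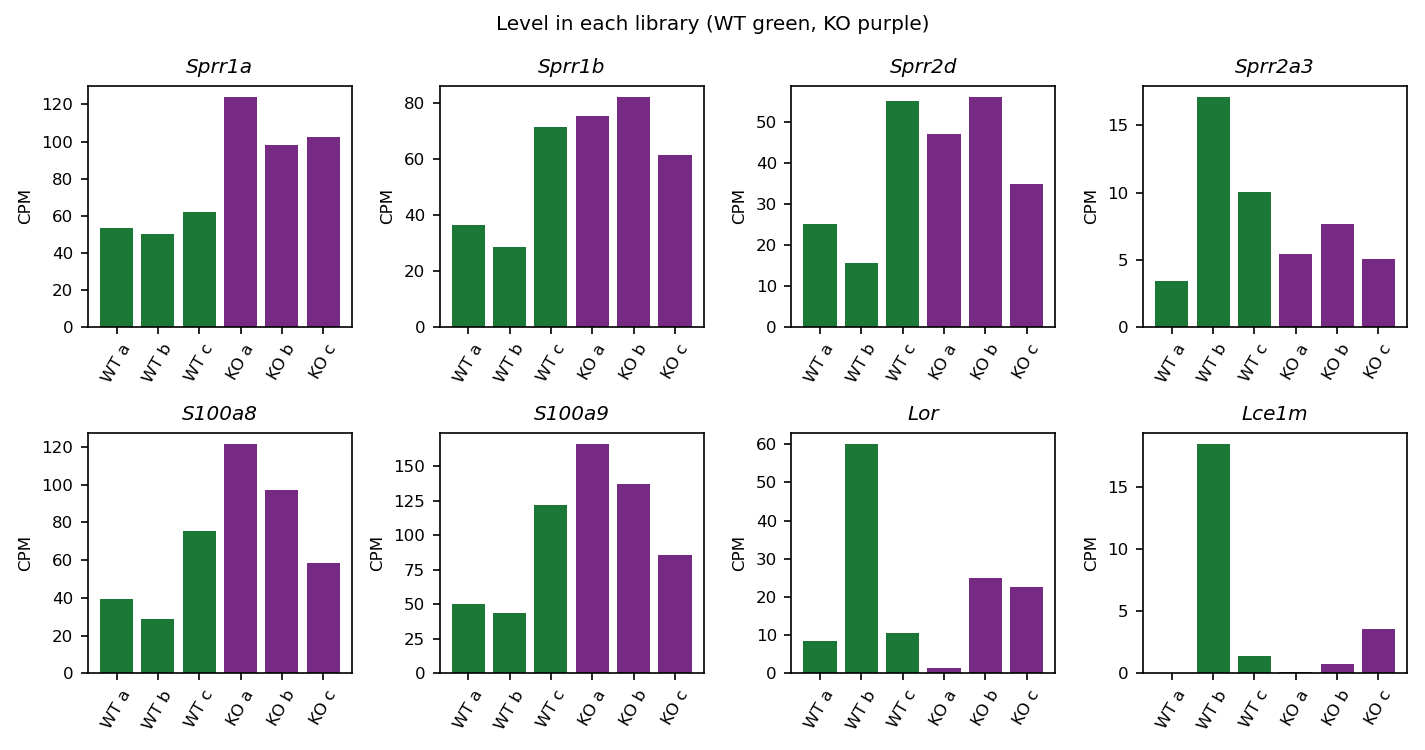
Level in CPM (vertical axis, from 0) of 8 members in the 3 WT (green) and 3 KO (purple) libraries, 1 bar per library. Sprr1a is separated by genotype (50.1 to 62.0 against 97.9 to 124 CPM), Sprr1b, Sprr2d, S100a8 and S100a9 have WT c among the KO libraries, and Lor and Lce1m are highest in WT b (60.1 and 18.5 CPM).

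Among S100 genes, *S100a8* and *S100a9* had the same low WT libraries as the *Sprr2* genes. *S100a8* stood at 39.2, 28.7 and 75.3 CPM in WT and 122, 97.0 and 58.5 CPM in KO libraries (log2 fold change 0.95, standard error 0.31, edgeR adjusted p = 0.234). *S100a9* stood at 50.2, 43.3 and 122 CPM in WT and 166, 137 and 85.3 CPM in KO libraries (0.85, standard error 0.34, adjusted p = 0.348). WT a and b were lowest for both genes, WT c lay above KO c, and the ratio of *S100a9* to *S100a8* counts stayed at 1.28 to 1.62 in all libraries. Since neutrophils hold much calprotectin, their markers were read beside these values: the 8 listed genes in the table (*Csf3r*, *Cxcr2*, *Mpo*, *Elane*, *Ltf*, *Camp*, *Ngp* and *Retnlg*) summed to 0.505 to 1.41 CPM in WT and 0.725 to 1.41 CPM in KO libraries, 6 of them never passed 3 counts, and *Ltf* and *Retnlg* were at 0 in all libraries. The part of neutrophils in the *S100a8* and *S100a9* values was not tested. 

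*S100a11*, an envelope-associated S100 protein, stood at 261, 272 and 302 CPM in WT and 386, 336 and 352 CPM in KO libraries, without overlap. The difference (log2 fold change 0.37, standard error 0.10) did not pass in edgeR (adjusted p = 0.129) and passed in DESeq2 (adjusted p = 0.0207). Of its possible reads 60.9% are unique, since the pseudogene *Gm12854* shares the rest. *S100a16* (0.29, standard error 0.11, adjusted p = 0.319) and *S100a14* (0.21, standard error 0.11, adjusted p = 0.519) had differences that did not pass.

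*S100a6*, which encodes calcyclin and had the highest level per kilobase of exon, stood at 1214, 1135 and 1223 CPM in WT and 974, 1076 and 936 CPM in KO libraries. All KO libraries lay below all WT libraries, yet the log2 fold change of −0.26 (standard error 0.10) did not pass (edgeR adjusted p = 0.322). *S100a4*, known from motile and mesenchymal cells, was led by 1 library: it stood at 377, 153 and 214 CPM in WT and 172, 256 and 137 CPM in KO libraries, WT a being the highest (−0.40, adjusted p = 0.652), with 54.1% unique reads because of the overlapping *Gm42674*. *S100a10*, the annexin A2 partner, *S100a1* and *S100a13* had log2 fold changes of −0.08, −0.02 and 0.01. *S100a3*, a gene of the hair cuticle, stood at 4.17 to 6.33 CPM (−0.15). As a whole the S100 genes summed to 2862, 2475 and 2868 CPM in WT and 2874, 2838 and 2545 CPM in KO libraries, with WT b and KO c lowest.

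Both *Pglyrp* genes encode secreted peptidoglycan-binding proteins that act on bacteria. *Pglyrp4* stood at 2.34, 2.43 and 1.98 CPM in WT and 5.99, 4.88 and 2.42 CPM in KO libraries (log2 fold change 0.98, standard error 0.31, edgeR adjusted p = 0.203). *Pglyrp3* stood at 4.50, 6.00 and 4.76 CPM in WT and 10.1, 7.74 and 5.61 CPM in KO libraries (0.62, standard error 0.23, adjusted p = 0.294). KO a and b were highest in both genes, and KO c lay within the range of the WT libraries.

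**Figure D3:**
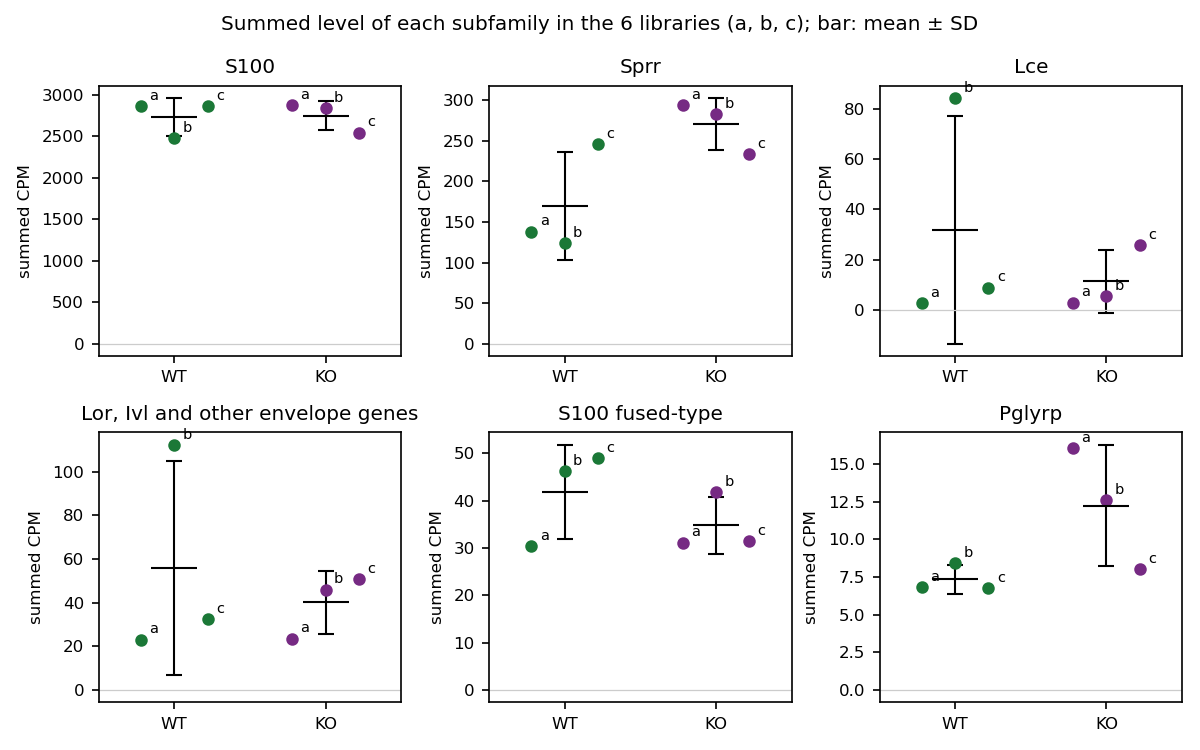
Summed CPM (vertical axes, differing in range) of the members of each subfamily in WT and KO libraries a, b and c, with a line at the mean and bars of 1 SD (n = 3). Lce and the other envelope genes are led by WT b (84.3 and 112 CPM), Sprr sums are lowest in WT a and b (138 and 124 CPM), and S100 sums differ little (2475 to 2874 CPM).

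The *Lce* genes, whose products join the envelope late, in the outermost living cells, were the most uneven members. Their summed level was 2.71, 84.3 and 8.91 CPM in WT and 2.89, 5.39 and 25.8 CPM in KO libraries. WT b was thus 3.27 times as high as the next library, KO c, and 31.1 times as high as the lowest, WT a. The KO mean was 0.355 times the WT mean (11.4 ± 12.6 against 32.0 ± 45.4 CPM, SD, n = 3 each), a log2 ratio of −1.49 that was 0.97 without WT b.

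In each of the 13 *Lce1* genes and *Lce6a*, WT b was the highest library, where it was highest in 23.5% of all tested genes and in 21 of the 68 members, and KO c was the second highest in each of the 14. With all libraries all 14 had a log2 fold change below 0, and without WT b all 14 had one above 0, with no call at an adjusted p below 0.05 in either fit. They were set apart from the *Lce3* genes after their values were seen, and as neighbours with like sequences, measured in the same 6 mice, they are not independent observations.

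*Lce1m* stood at 0, 18.5 and 1.37 CPM in WT and 0.085, 0.750 and 3.58 CPM in KO libraries. The KO a value is 2 counts and below the limit of 3 counts (0.128 to 0.145 CPM) taken as detection. The log2 fold change was −2.19 (standard error 1.26, edgeR adjusted p = 0.572), and 1.06 without WT b. *Lce1a2* stood at 0.046, 14.7 and 1.68 CPM in WT and 0.213, 0.750 and 4.79 CPM in KO libraries (−1.53, standard error 1.16, adjusted p = 0.671; 1.12 without WT b). The widest differences in estimate, *Lce1l* (−2.55, standard error 1.23, adjusted p = 0.466) and *Lce1j* (−2.46), also had WT b highest and KO c second, and their sign was opposite without WT b.

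The 6 *Lce3* genes, which in human skin belong to the response to barrier damage, did not share this order. They summed to 1.56, 0.550 and 1.37 CPM in WT and 1.74, 0.938 and 0.725 CPM in KO libraries, so WT b was the lowest. *Lce3c*, the one with the most counts, had 17 at most, and 53.4 to 69.2% of the possible reads of *Lce3c*, *Lce3d*, *Lce3e* and *Lce3f* are unique.

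**Figure D4:**
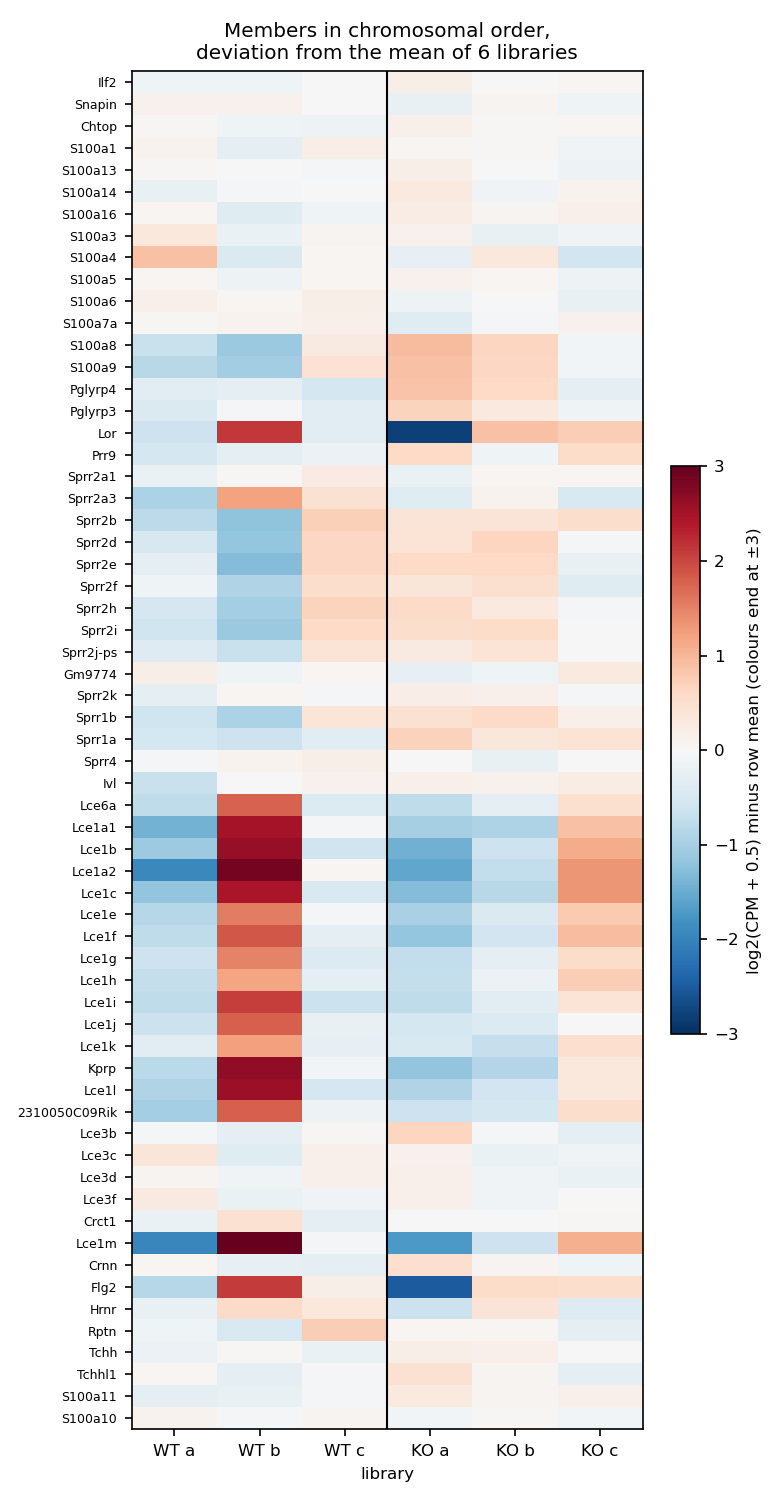
Deviation of log2(CPM + 0.5) from the mean of the 6 libraries (colour, ending at ±3) for the 62 members with more than 3 counts in some library, in chromosomal order from top to bottom. WT b (second column) is high through the Lce1 block, Kprp, Lor and Flg2, low through most of the Sprr2 block, and S100a10, S100a13, Ilf2 and Chtop differ little between libraries.

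*Lor*, the main envelope protein by mass in mouse epidermis, stood at 8.44, 60.1 and 10.6 CPM in WT and 1.49, 25.0 and 22.6 CPM in KO libraries. WT b was 2.40 times the next library, KO b, and KO a was the lowest, 40.4-fold below WT b. The log2 fold change was −0.69 (standard error 0.81, edgeR adjusted p = 0.734) and 0.78 without WT b. *Kprp*, a keratinocyte proline-rich protein, stood at 1.47, 21.1 and 2.73 CPM in WT and 1.02, 1.36 and 3.77 CPM in KO libraries (−2.05, standard error 0.82, adjusted p = 0.352), and at −0.05 without WT b. The nearby *2310050C09Rik* was also highest in WT b (12.2 CPM) and at 1.33 to 4.79 CPM in the other 5 libraries.

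*Ivl*, an early envelope scaffold, did not follow *Lor*. It stood at 5.14, 8.57 and 9.39 CPM in WT and 9.52, 9.38 and 10.1 CPM in KO libraries (0.33, standard error 0.21, edgeR adjusted p = 0.617). WT a was low and the other 5 libraries lay close together. *Prr9* (1.28, 1.60 and 1.81 against 3.40, 1.88 and 3.29 CPM; 0.87, adjusted p = 0.246) did not overlap between the groups, and *Crct1* (−0.04) stood at 5.11 to 8.75 CPM with WT b highest.

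Of the fused-type genes, which join an S100 domain to long repeats, *Flg2* had the order of *Lor*. It stood at 1.19, 12.7 and 3.00 CPM in WT and 0.043, 4.03 and 3.92 CPM in KO libraries, with a single count in KO a (−1.09, standard error 0.89, edgeR adjusted p = 0.681; 0.33 without WT b). *Hrnr*, which encodes the filaggrin relative hornerin, stood at 8.81, 15.7 and 13.1 CPM in WT and 6.50, 13.8 and 7.88 CPM in KO libraries (−0.42, standard error 0.27, adjusted p = 0.632). Because of their repeats, 37.7% of the possible reads of *Flg2* and 31.4% of those of *Hrnr* occur once, so both levels may be understated. *Rptn*, which encodes repetin, was highest in WT c (28.0 CPM) and at 12.0 to 17.4 CPM in the other 5 libraries, so that its log2 fold change of −0.18 was 0.25 without WT c. *Tchh*, the trichohyalin of the inner root sheath, stood at 4.76 to 5.73 CPM in WT and 5.66 to 6.38 CPM in KO libraries (0.26, standard error 0.18, adjusted p = 0.638).

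Genes outside the window were set beside WT b. *Krt77*, a keratin of suprabasal cells picked after its values were seen, stood at 24.2, 244 and 95.7 CPM in WT and 25.0, 71.9 and 94.9 CPM in KO libraries, and *Krt10* was also highest in WT b (721 CPM, against 478 to 664 CPM in the other 5 libraries). The other genes of the suprabasal list did not have this order, since *Dmkn* was lowest in WT b (907 CPM), *Sbsn* second lowest (499 CPM), and *Krt1* (823 CPM) and *Krtdap* (339 CPM) were not highest there. The whole list in WT b (3534 CPM) lay below each KO library. Without *Sbsn*, the list was highest in WT b (3035 CPM, against 2427 to 2944 CPM in the other 5 libraries). The basal list was lowest in WT b (26463 CPM, against 30805 to 40091 CPM), and a sebocyte list (*Scd1*, *Mgst1*, *Awat2*, *Elovl3*, *Pparg* and *Plin2*) was highest there (530 CPM, against 270 to 483 CPM), led by *Scd1* at 348 CPM. WT a and KO a, the lowest libraries for most *Lce1* genes, also had the lowest *Krt77*. Beyond WT b the lists did not follow the *Lce1* order, since the sebocyte list was second highest in KO a (483 CPM) and the basal list second lowest there (30805 CPM). Their part in the *Lce1* and *Lor* values was not tested.

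**Figure D5:**
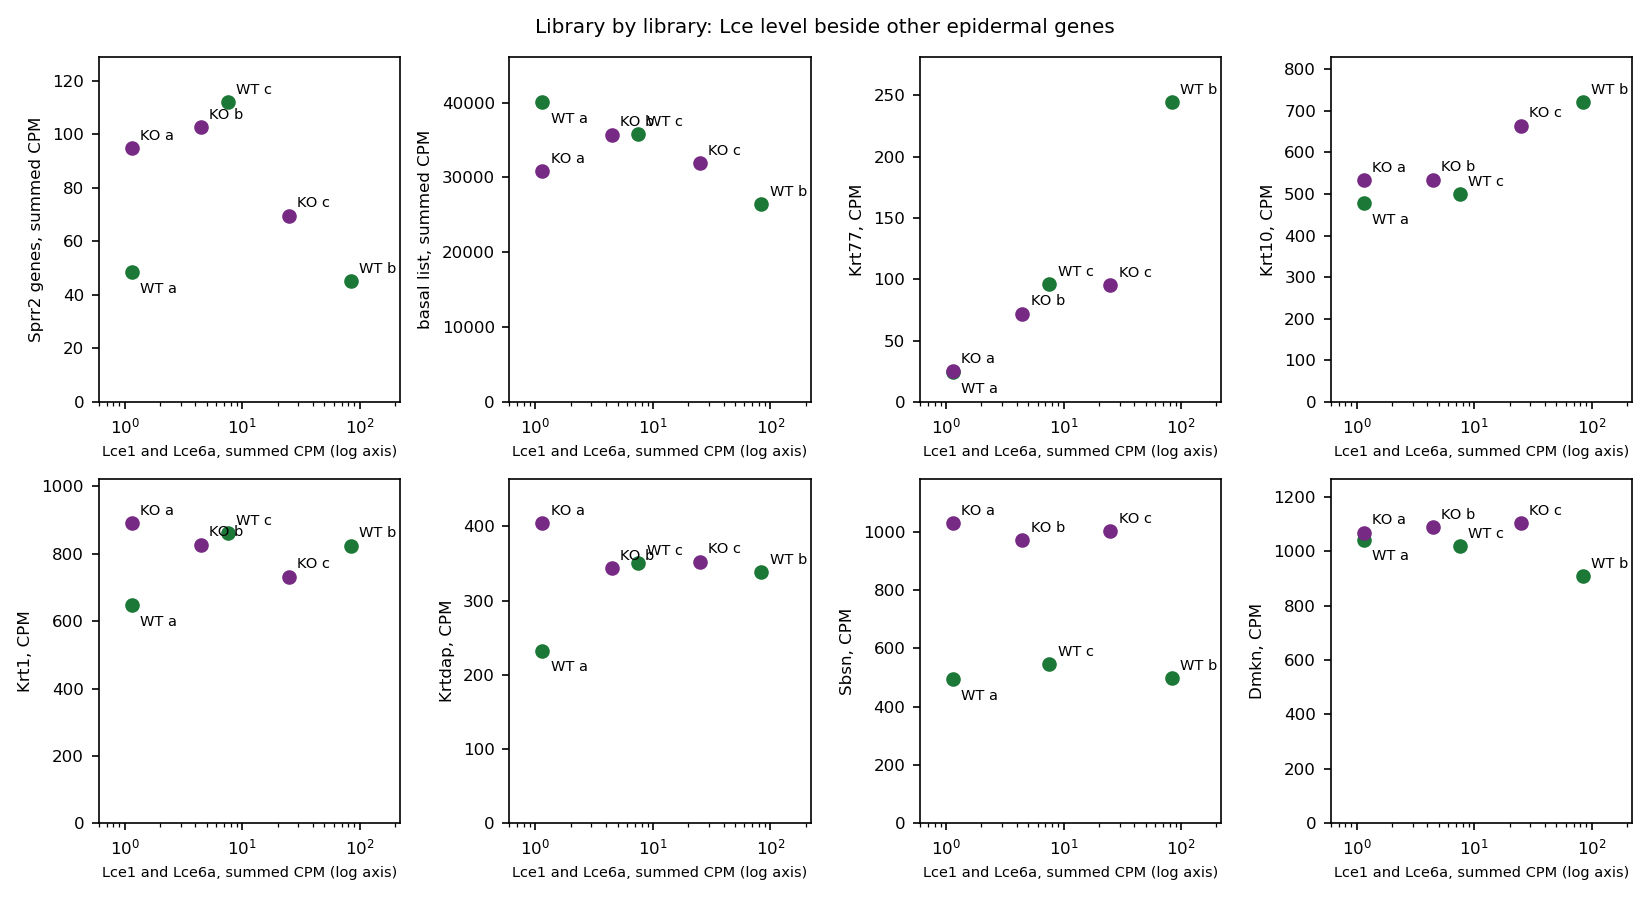
Summed CPM of the 13 Lce1 genes and Lce6a (horizontal log axis) against the summed CPM of the 10 Sprr2 genes, that of the basal list, and the CPM of each of the 6 suprabasal genes, 1 point per library (WT green, KO purple). WT b is at the far right in each panel (83.8 CPM), with the highest Krt77 (244 CPM) and Krt10 (721 CPM), the lowest Sprr2 sum (45.0 CPM), basal sum (26463 CPM) and Dmkn (907 CPM), and neither end for Krt1, Krtdap and Sbsn.

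The genes that act on the envelope from elsewhere in the genome were taken from a list of 49 epidermal differentiation genes outside the window, of which 47 were tested. At an adjusted p below 0.05 (edgeR) 8 rose and 0 fell, beside 0.461% and 0.212% of all 21681 tested genes. At an unadjusted p below 0.05 20 were higher and 2 lower, beside 5.58% and 5.97% of all genes. limma-voom called 2 higher and 0 lower, and DESeq2 13 higher and 2 lower, where 24 and 546 of all tested genes passed. Of the 47, 39 had a log2 fold change above 0. Their median was 0.26, against 0.000088 over all tested genes. The list was chosen with earlier results of these data known. Those that rose included *Sbsn* (0.96), which encodes suprabasin, the kallikrein proteases *Klk5* (1.25), *Klk7* (1.34) and *Klk8* (1.26), *Serpinb2* (0.84), and the transcription factor genes *Cebpb* (0.68) and *Prdm1* (1.22). *Sbsn* and *Klk5* are also displayed by the study among its changed genes, and each listed gene was measured in the same libraries, so their direction is not independent evidence. The transglutaminase genes, whose enzymes cross-link the members' products, did not pass in edgeR: *Tgm1* had a log2 fold change of 0.67 (adjusted p = 0.183), *Tgm3* of 0.29 and *Tgm5* of −0.47 (adjusted p = 0.0861). For *Tgm5* all KO libraries (291, 360 and 315 CPM) lay below all WT libraries (485, 399 and 453 CPM), and DESeq2 gave an adjusted p of 0.00724.

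The 5 other genes of the interval have roles outside the skin barrier. *Ilf2*, an RNA-binding factor, stood at 87.6 to 96.0 CPM in WT and 96.4 to 109 CPM in KO libraries (0.17, standard error 0.09, edgeR adjusted p = 0.524). *Chtop*, an mRNA export factor, stood at 169 to 191 CPM in WT and 191 to 206 CPM in KO libraries (0.16, adjusted p = 0.541), and *Snapin*, of vesicle trafficking, at 40.5 to 51.6 CPM over the 6 libraries (−0.17, adjusted p = 0.617). *Gm9774* and *9130204L05Rik* had at most 6 and 1 counts.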

How the data were processed

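RNA was measured in 6 strand-specific, polyadenylated-RNA libraries of sorted GFP-positive keratinocytes. According to the methods and the submitters' notes, single reads of 65 bases were aligned with TopHat (2.1.0, with Bowtie 1.1) to GRCm38, and uniquely mapped sense reads were counted per Ensembl gene. The deposited values are these counts, whole numbers without normalization. No column was left unmapped to a genotype.

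Genes with a count in at least 1 library (21681) were tested for KO against WT in R 4.3.3 with the quasi-likelihood test of edgeR 4.0.16 (glmQLFit, glmQLFTest) after TMM scaling, with Benjamini-Hochberg adjustment over all of them. A call is an adjusted p below 0.05. Alternatives were limma-voom (limma 3.58.1), DESeq2 1.42.0, other scalings and filters, and each library left out in turn. In libraries of 20578309 to 23670507 counts, 3 counts (0.128 to 0.145 CPM) were taken as the detection limit, which covers counting error only. Libraries of a group are different mice, and p-values measure the spread between them. No library repeated another, the smallest chi-square per degree of freedom between a pair being 10.1, where sampling noise alone gives about 1.

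Exon lengths and read uniqueness (windows of 65 bases) came from GENCODE M21, which holds all 68 members. Fully unique against other genes were 36 members, and 7 were below 60%. Repeats within a gene are left out of this share: windows that occur once made up 37.7% of *Flg2* and 31.4% of *Hrnr*. Members and lists were chosen with earlier results of these data known. The 28 members named by rule were those past the threshold, the 3 most abundant of each subfamily, the 2 of each subfamily with the largest absolute log2 fold change at a mean of at least 1 CPM, and *Lor*, *Ivl*, *S100a3*, *S100a8*, *S100a9*, *Sprr1a*, *Sprr1b*, *Flg2*, *Hrnr*, *Rptn* and *Tchh*. Others were named after their values were seen. The value of 1 gene of the list outside the window is not reported here. The edgeR, limma-voom and DESeq2 fits were first tested on simulated counts.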

Additional observations from a re-analysis of the deposited data

How the results depend on the processing

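No paired analysis was possible because the columns of the count table carry no replicate number, so no replicate block was fitted. The 28 named members had 385 values under the alternatives. Of these, 372 kept their direction and side of the threshold, or changed sign by less than the main fit's standard error. A call was lost in 2 (*Sprr1a* without WT c and without KO a) and gained in 2 (*S100a11* in DESeq2 and *Sprr2a3* without WT a). The other 9 changed sign by more than that standard error, 8 of these without WT b. Shifts that kept the sign were not counted: *Kprp* stood at −0.05 without WT b, against −2.05 (standard error 0.82) with all libraries. Members higher in KO at an adjusted p below 0.05 numbered 1, 2 in DESeq2 and 0 to 1 with each library left out, and members lower 0, and 0 to 1 with each library left out. Members without overlap numbered 6 higher (6 to 17 with each library left out) and 1 lower (1 to 4), where fewer libraries leave less room for overlap. The median log2 fold change ranged from −3.02 to 0.90 for *Lce* genes and from −0.14 to 0.12 for the 5 other genes of the window with each library left out. The latter was 0.16 with filterByExpr, 0.16 when every library had to hold 10 counts and 0.16 over members with a mean of at least 10 counts, which drop *Gm9774* and *9130204L05Rik*. The log2 ratio of summed levels, an alternative chosen after seeing the data, ranged from −2.95 to 0.97 for *Lce* and from −0.85 to 0.53 for the other envelope genes with each library left out. Counting *Flg* as a member, also chosen later, changed no count of calls. Across all tested genes 146 passed in edgeR, 24 in limma-voom and 546 in DESeq2, and in edgeR 5 without WT c and 521 without WT a. At this depth members near 3 counts per library cannot show a difference.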

Other observations

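The interval held 5 further genes that the count table does not class as protein-coding. *Flg*, the filaggrin gene, stood at 8.49, 12.4 and 4.36 CPM in WT and 4.29, 9.47 and 7.30 CPM in KO libraries (log2 fold change −0.26, standard error 0.35, edgeR adjusted p = 0.772), with WT b highest and KO a lowest, as in *Lor* and *Flg2*. *Sprr2g*, classed as a polymorphic pseudogene, stood at 3.40, 1.47 and 4.54 CPM in WT and 3.66, 3.75 and 2.18 CPM in KO libraries (0.03, adjusted p = 0.999), with WT b lowest and WT c highest. *Gm6097*, *Rplp0-ps1* and *Gm5278* had at most 7, 7 and 2 counts.

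Keratins of the inner root sheath and hair shaft, read as a marker list, were low and higher in KO libraries for some members. *Krt25* stood at 0.176 to 0.641 CPM in WT and 4.85, 1.31 and 6.92 CPM in KO libraries (3.45, standard error 0.59, edgeR adjusted p = 0.0256), *Krt28* at 1.33 to 2.06 and 3.00 to 9.05 CPM (1.83, adjusted p = 0.0461), and *Krt35* at 0.275 to 0.353 and 0.703 to 5.10 CPM (3.13, adjusted p = 0.0462). With limma-voom the adjusted p values were 0.192, 0.192 and 0.256, and in edgeR without WT c they were 0.368, 0.382 and 0.386, so that each of these 3 calls was lost under both. Of the rest of the list *Krt71* (1.06), *Krt73* (1.07), *Krt27* (0.23), *Msx2* (0.03) and *Gata3* (−0.03) did not pass, and *Krt72* had no count. *Tchh*, the window's gene of the same layers, had a log2 fold change of 0.26 that did not pass.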
